A study of Mus musculus with 16 samples.

Results

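Transcripts of 8 genes of the growth hormone axis were followed in mouse liver: the receptor gene Ghr, the transcription factor gene Stat5b, the feedback inhibitor genes Socs2 and Cish, the repressor gene Bcl6, and the downstream genes Hsd3b5, Cyp4a12a and Fmo2. They were picked by symbol and not by a threshold, but with earlier results of these data known. The gene lists below were chosen in the same way. Their counts beside the shares of all genes are therefore a description only. All 8 of 8 were among the 12910 genes tested, out of 46078 in the count table. Poly(A) RNA was sequenced from livers of 22-week-old C57BL/6 mice, all of them with diet-induced obesity and fatty liver, in 4 groups of 4 with 1 library per mouse. The saline group received vehicle. The calorie restriction group was brought to an equivalent weight loss by feeding less. Semaglutide, given to the next group, activates the receptor of glucagon-like peptide-1 (GLP1R). Dicretin, given to the last, activates both GLP1R and the glucagon receptor (GCGR). No dose, treatment length, batch or sex was given in the labels, so no batch could be modelled. Saline is the only untreated arm, and it is shared by 3 of the 6 comparisons.

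Growth hormone reaches the liver in pulses in male rodents and more evenly in females. It binds its receptor on hepatocytes, the kinase Jak2 is activated, and Stat5b is phosphorylated, enters the nucleus and binds DNA. Each pulse induces Cish and Socs2, whose proteins damp the signal, and lowers Bcl6, a repressor that occupies many of the same sites. The male pattern of pulses sustains male-biased genes such as Hsd3b5 and Cyp4a12a and holds down female-biased genes such as Fmo2. Transcript levels do not show whether Stat5b protein was phosphorylated.

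Levels are given as CPM, which are read counts scaled to each library's total with TMM factors. Libraries carry the submitters' numbers, and 4 values in a row are always in this order: 35, 50, 73 and 78 in saline, 7, 8, 52 and 79 in calorie restriction, 11, 15, 31 and 51 in Semaglutide, and 14, 23, 64 and 65 in Dicretin. Means are ± SD (n = 4) and log2 fold changes ± SE. Adjusted p-values are from quasi-likelihood tests in edgeR, corrected by Benjamini-Hochberg over all 12910 genes, and a gene passed at an adjusted p under 0.05.

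Library totals ran from 12.144 to 18.755 M counts. On principal components of log2 CPM the Dicretin libraries stood apart on the first (38.88% of variance), and Semaglutide 11 and Dicretin 14 lay farthest out on the second. In Dicretin 64, 5 pancreatic acinar markers summed to 792 CPM, against at most 1.66 CPM in any other library. In saline, 5 adipocyte markers summed to 12.9 to 45.4 CPM, against at most 2.77 CPM in the other 12 libraries. Of these markers only Cfd had enough counts to be tested, and it was lower than in saline in each other group. Adipoq, Plin1, Retn and Lep were not tested, and Retn had no count in saline. Every library had the Y-linked gene Ddx3y at 791 to 1244 counts and the X-inactivation RNA Xist at 0 to 6 counts. Of the 4 Y-linked genes tested, Eif2s3y and Kdm5d fell in Dicretin against each other group. From saline to Dicretin they went from 62.4 ± 2.95 to 39.2 ± 2.35 CPM and from 14.5 ± 1.80 to 7.11 ± 1.63 CPM. The hepatocyte markers Alb, Apoa1, Ttr and Hnf4a were abundant throughout, with a sum of 66060 to 84720 CPM in Dicretin and 88680 to 108100 CPM in saline. The sum was 107900 to 137000 CPM in Semaglutide and 115700 to 135000 CPM in calorie restriction. Alb, the albumin gene, fell in Dicretin against each other group, and Apoa1 and Ttr fell against Semaglutide. Hnf4a went the other way and rose in Dicretin against each other group. Against calorie restriction that rise was lost in 10 of 17 alternatives. The part of these differences in the results below was not tested.

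**Figure D1:**
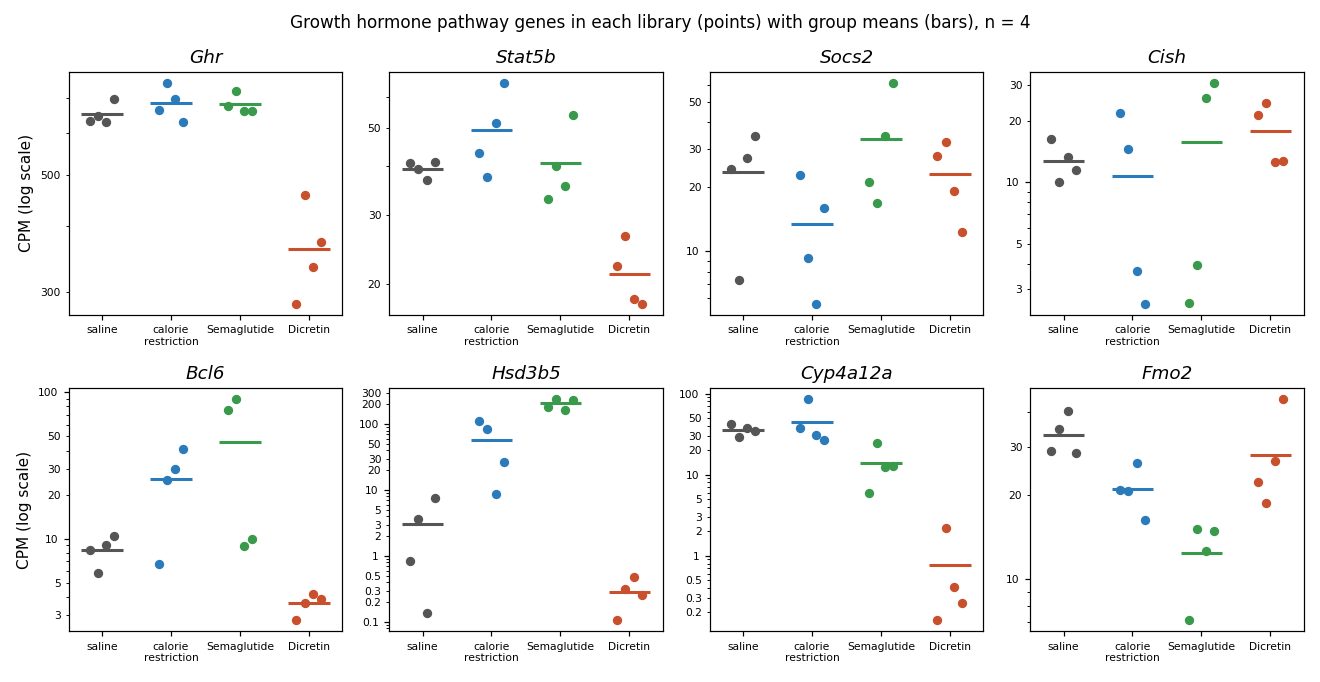
CPM on a log axis for each of the 8 genes in each library (points, in the library order given in the text), with the group mean as a bar (n = 4). Ghr and Stat5b are lowest in the 4 Dicretin libraries, Hsd3b5 is highest in Semaglutide, and Cish and Bcl6 spread widely within calorie restriction and Semaglutide.

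The Stat5 recognition sequence was looked for at the start sites of the members, as a description with no test. RefSeq start-site windows on GRCm38.p6, of 250 bases before and 50 after a start, were found for 6 of the 8 genes, in 10 windows. Socs2 and Cyp4a12a were not matched. The motif was TTCNNNGAA, where N is any base. It reads the same on both strands, so one search covers both. Cish had 2 copies, at the start itself and 11 bases further on. Bcl6 had 3 copies in the window of an internal start and 1 copy at its upstream start. Of Fmo2's windows 1 had 1 copy, and those of Ghr, Stat5b and Hsd3b5 had none. The one Hsd3b5 window lies upstream of the gene's extent in the GENCODE annotation, and the start at the end of that extent was not searched. Among 32851 windows of the same length in the whole table, 8.30% held at least 1 copy, 0.457% at least 2 and 0.033% at least 3. The stretches of Cish and Bcl6 with the copies in capitals are printed below, 5′ to 3′.
Cish, chr9:107296654-107296683, plus strand, 5 bases before to 25 from the start: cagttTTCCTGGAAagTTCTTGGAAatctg
Bcl6 internal start, chr16:23981284-23981513, minus strand, the 230 bases before the start: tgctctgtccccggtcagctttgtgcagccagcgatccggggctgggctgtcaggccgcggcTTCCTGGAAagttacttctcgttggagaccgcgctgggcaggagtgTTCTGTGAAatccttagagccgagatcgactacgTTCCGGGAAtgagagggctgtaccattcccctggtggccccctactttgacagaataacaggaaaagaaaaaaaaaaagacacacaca
Bcl6 upstream start, chr16:23988853-23989082, minus strand, the 230 bases before the start: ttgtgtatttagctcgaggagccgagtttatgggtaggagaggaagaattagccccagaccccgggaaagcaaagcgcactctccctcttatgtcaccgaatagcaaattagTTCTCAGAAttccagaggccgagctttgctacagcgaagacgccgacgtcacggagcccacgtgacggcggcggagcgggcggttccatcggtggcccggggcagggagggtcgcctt
A copy of the motif is a match of letters only.

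In Dicretin livers 4 of the 8 genes fell against saline and none rose, where 19.2% of all tested genes fell and 17.5% rose. They were Ghr, Stat5b, Hsd3b5 and Cyp4a12a, and the same number had an unadjusted p under 0.05. In Semaglutide livers Hsd3b5 rose and Fmo2 fell against saline, and 1.56% and 2.62% of all genes did so. In calorie restriction Hsd3b5 alone rose, with 3.42% of all genes up and 4.11% down. Dicretin against calorie restriction gave 5 falls (Ghr, Stat5b, Bcl6, Hsd3b5 and Cyp4a12a) and no rise, beside 16.2% down and 15.1% up overall. Dicretin against Semaglutide gave the same 5 falls and a rise of Fmo2, beside 17.1% down and 14.8% up. No member passed in Semaglutide against calorie restriction by edgeR, where 3.05% of genes rose and 3.07% fell. In that comparison 4 members had an unadjusted p under 0.05 by edgeR, and DESeq2 called 0 and limma-voom 2. Among 5 Kupffer cell markers, 3 rose in Dicretin against calorie restriction, with sums of 133 to 428 CPM in Dicretin, 45.2 to 160.1 CPM in calorie restriction, 67.4 to 223 CPM in Semaglutide and 130 to 209 CPM in saline. Their part in these calls was not tested.

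**Figure D2:**
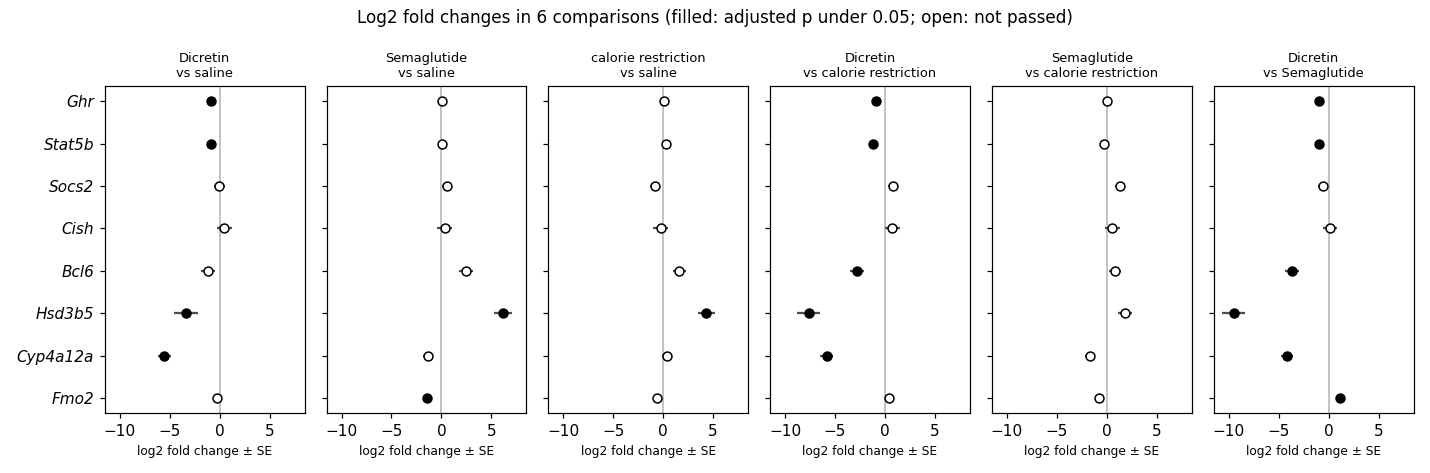
Log2 fold change ± SE (horizontal axis) of the 8 genes in the 6 comparisons, from edgeR. Filled points passed at an adjusted p under 0.05 and open points did not. The fall of Hsd3b5 is the farthest from 0 in Dicretin against Semaglutide, at -9.48.

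Ghr, the receptor gene (chromosome 15, 3317760 to 3583492, minus strand, GRCm38), was at 631, 645, 630.2 and 697 CPM in saline. Calorie restriction gave 663, 746, 697 and 628 CPM, and Semaglutide 674, 722, 662 and 660.1 CPM. The Dicretin libraries were at 285, 458, 334 and 373 CPM. All 4 Dicretin livers lay below all 12 others, which overlapped each other. Ghr fell by 0.85 ± 0.14 on the log2 scale in Dicretin against saline (adjusted p = 0.00013), to 362 ± 73.3 from 651 ± 31.6 CPM. It was lower than in calorie restriction by a log2 difference of -0.92 ± 0.14 (adjusted p = 7.7e-05) and than in Semaglutide by -0.91 ± 0.14 (adjusted p = 7.51e-05). None of these 3 calls was lost under any of the alternatives tried. Without Dicretin 64, the library with acinar transcripts, Ghr still passed. For Semaglutide against saline the 95% interval of the log2 difference was -0.23 to 0.35, and for calorie restriction -0.22 to 0.36. In bulk liver, fewer cells of a type and less RNA per cell cannot be told apart.

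Stat5b (chromosome 11, 100780731 to 100850724, minus strand) encodes the main Stat5 protein of liver. Saline livers had 40.6, 39.2, 36.9 and 40.9 CPM. In calorie restriction it was at 43.2, 37.6, 51.6 and 65.1 CPM, and in Semaglutide at 32.9, 40.0, 35.6 and 54.1 CPM. Dicretin livers had 22.3, 26.5, 18.4 and 17.8 CPM. Again every Dicretin library lay below every other library. The fall against saline was 0.89 ± 0.19 on the log2 scale (adjusted p = 0.00117), against calorie restriction -1.21 ± 0.19 (adjusted p = 8.72e-05) and against Semaglutide -0.94 ± 0.19 (adjusted p = 0.000869). Stat5b shares 11.0% of its 50-base stretches with its neighbour Stat5a, so reads of the 2 genes can be split unevenly. Stat5a fell as well, from 13.9 ± 1.15 to 5.32 ± 0.994 CPM (log2 -1.38 ± 0.18, adjusted p = 1.01e-05). In Semaglutide Stat5a was at 9.49 ± 1.69 CPM, without a call against saline.

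Between receptor and Stat5, the list of 8 genes gave 3 falls and 2 rises in Dicretin against saline. Of all genes 19.2% fell and 17.5% rose there. The list's median log2 change was -0.14, and that of all genes -0.01. The falls were the 3 described. The rises were Stat3, a cytokine-activated relative of Stat5, from 69.2 ± 8.69 to 125 ± 42.7 CPM (log2 0.85 ± 0.25, adjusted p = 0.0112), and Prlr, the prolactin receptor, from 117 ± 7.23 to 174 ± 36.4 CPM (0.57 ± 0.19, adjusted p = 0.0207). Stat3 in Dicretin overlapped saline and Prlr did not. The Prlr call was lost without Dicretin 23 (adjusted p = 0.0734) or saline 50 (adjusted p = 0.0508). In calorie restriction Prlr also rose against saline, to 184 ± 37.7 CPM, a call lost in 6 of 17 alternatives. Stat3 was at 98.8 ± 20.3 CPM there, without a call against saline. Neither gene passed in Dicretin against calorie restriction. Jak2, the kinase bound to the receptor, was at 14.9 ± 4.28 CPM in Dicretin, against 16.2 ± 1.80 CPM in saline, and its log2 difference of -0.12 ± 0.19 did not pass (adjusted p = 0.664). No gene of the list passed in Semaglutide against saline by edgeR, where 1 had an unadjusted p under 0.05, and DESeq2 called 1 and limma-voom 0.

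Socs2 (chromosome 10, 95385362 to 95417180, minus strand), a feedback inhibitor induced by growth hormone, varied widely within groups. Saline livers had 24.1, 7.27, 27.3 and 34.6 CPM, and calorie-restricted livers 22.6, 9.24, 5.65 and 15.9 CPM. Semaglutide livers had 21.0, 16.8, 34.5 and 61.2 CPM, and Dicretin livers 27.7, 32.2, 19.2 and 12.2 CPM. All groups overlapped. No comparison passed: the nearest was Semaglutide over calorie restriction, at a log2 difference of 1.32 ± 0.51 (95% interval 0.24 to 2.41, adjusted p = 0.137). Dicretin against saline gave -0.02 ± 0.50 with an interval of -1.09 to 1.05, so these libraries do not exclude a difference inside that interval.

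Cish (chromosome 9, 107296026 to 107302784, plus strand), the other feedback inhibitor and an early target of Stat5, was at 16.4, 10.00, 13.3 and 11.5 CPM in saline. In calorie restriction it was 22.0, 14.7, 3.66 and 2.54 CPM. Semaglutide gave 2.55, 3.94, 25.9 and 30.8 CPM, and Dicretin 21.3, 24.7, 12.6 and 12.7 CPM. Semaglutide held a pair of livers below and a pair above the range of saline. Calorie restriction held a low pair, 1 liver inside that range and 1 above it. No comparison passed, and log2 differences ranged from -0.26 ± 0.72 (calorie restriction against saline, adjusted p = 0.868) to 0.74 ± 0.71 (Dicretin against calorie restriction, adjusted p = 0.464). Cish overlaps 2 annotated genes on the opposite strand, and no source used here names the strand setting of the counting. One of them had no counts and the other a mean of at most 0.509 CPM.

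Bcl6 (chromosome 16, 23965052 to 23988852, minus strand), the repressor that growth hormone lowers, was at 8.32, 5.82, 9.05 and 10.5 CPM in saline. Calorie restriction gave 6.72, 25.3, 30.0 and 41.1 CPM. In Semaglutide it was 75.7, 89.8, 8.94 and 9.95 CPM, and in Dicretin 2.79, 3.61, 4.201 and 3.90 CPM. Calorie-restricted livers 8, 52 and 79 and Semaglutide livers 11 and 15 were well above saline, their mates were at its level, and all Dicretin livers were below it. Dicretin was lower than calorie restriction by a log2 difference of -2.83 ± 0.71 (adjusted p = 0.00698) and than Semaglutide by -3.67 ± 0.72 (adjusted p = 0.00121). Against saline the log2 difference of -1.22 ± 0.70 did not pass (adjusted p = 0.191), although the groups did not overlap. With only those 2 groups in the fit it passed (adjusted p = 0.00214). Semaglutide against saline, at 2.45 ± 0.67, missed the threshold (adjusted p = 0.0526). It passed in 4 of 17 alternatives. These were DESeq2 (adjusted p = 0.00862), a filter of 1 CPM (adjusted p = 0.0469) and leaving out Semaglutide 31 or 51 (adjusted p = 0.0175 and 0.0245), the livers low in Bcl6. Over all 17 the log2 difference was 1.75 to 2.81 and the adjusted p reached 0.186. Calorie restriction against saline, at 1.62 ± 0.66, did not pass (adjusted p = 0.154). Bcl6 exons are overlapped by Gm37419 on the opposite strand.

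Set side by side, Cish and Bcl6 ran opposite in the livers of Semaglutide and of calorie restriction. Semaglutide 11 and 15 and calorie-restricted 52 and 79 had Cish at 2.54 to 3.94 CPM and Bcl6 at 30.0 to 89.8 CPM. Semaglutide 31 and 51 and calorie-restricted 7 had Cish at 22.0 to 30.8 CPM and Bcl6 at 6.72 to 9.95 CPM. The saline livers did not show this: saline 50 was the lowest in both, with Cish at 10.00 CPM and Bcl6 at 5.82 CPM. With group means removed from log2 CPM, Pearson's r was -0.88 and Spearman's rho -0.82 over 16 livers. Exact two-sided permutation within groups gave p = 0.00882 for r and p = 0.00578 for rho. After adjustment over the 28 pairs of members these were 0.141 and 0.162, so the relation did not pass the correction. It was examined after the values had been seen. Leaving out the 2 livers farthest in Cish gave r = -0.83. Without the calorie restriction group r was -0.92 with an exact permutation p of 0.155. Among 12909 other tested genes, Bcl6 had the most negative within-group r with Cish, followed by Zfand5 at -0.86.

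**Figure D3:**
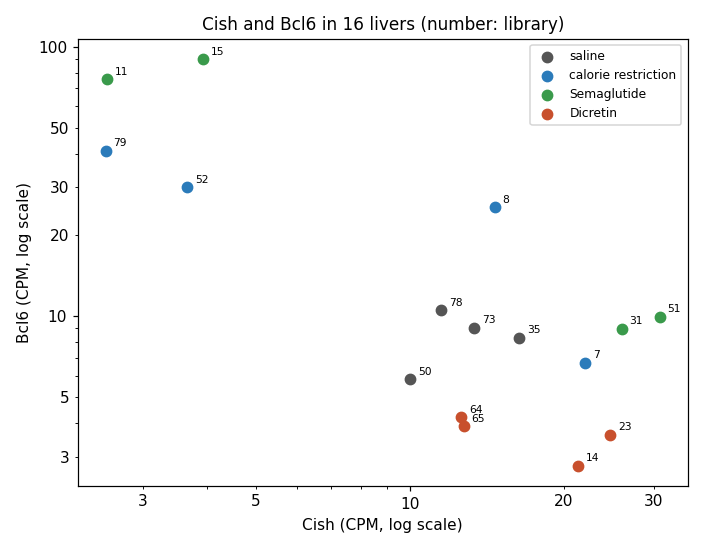
Cish (horizontal) against Bcl6 (vertical), both in CPM on log axes, in 16 livers coloured by group and numbered by library. Semaglutide 11 and 15 and calorie-restricted 52 and 79 sit at upper left, and the 4 Dicretin livers lie below the rest.

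No pair of members passed the correction. Ghr and Cyp4a12a had a within-group r of 0.78 (exact permutation p = 0.0101, 0.141 after adjustment), which dropped to 0.46 without Dicretin 14 and 23, so it rests on those livers. Socs2 and Cish, both feedback inhibitors, had r = 0.56 (exact permutation p = 0.0486, adjusted 0.453). The remaining 25 pairs had unadjusted p above 0.05.

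Around these inhibitors, the list of cytokine feedback genes and phosphatases had 10 of 11 genes tested. In Dicretin against saline 3 rose, none fell and the median log2 change was 0.32, where 17.5% of all genes rose and 19.2% fell. Socs3, the inhibitor induced by interleukin-6 type cytokines, rose from 5.52 ± 0.493 to 21.6 ± 2.96 CPM (log2 1.96 ± 0.33, adjusted p = 0.00016). It was also higher than in calorie restriction (5.70 ± 2.15 CPM, adjusted p = 0.000254) and Semaglutide (8.83 ± 4.62 CPM, adjusted p = 0.00511). Ptpn11, a phosphatase acting on Jak2 and Stat5, rose by 0.68 ± 0.22 (adjusted p = 0.0193), a call lost without Dicretin 14 (adjusted p = 0.0711). Socs5 rose by 0.58 ± 0.22 (adjusted p = 0.0422), which 9 of 17 alternatives did not call. No gene of this list passed against saline in Semaglutide or in calorie restriction by edgeR, DESeq2 or limma-voom, and by edgeR 2 and 1 had an unadjusted p under 0.05.

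Hsd3b5 (chromosome 3, 98618634 to 98630252, minus strand), a male-specific hydroxysteroid dehydrogenase, ran opposite in the treatments. Saline livers had 0.843, 3.61, 0.136 and 7.69 CPM. Calorie-restricted livers had 112, 85.3, 8.64 and 26.7 CPM, and Semaglutide livers 185, 239, 166 and 236 CPM. Dicretin livers had 0.107, 0.317, 0.474 and 0.260 CPM, 17 counts in all. Semaglutide livers were above all others, calorie-restricted livers above saline, and Dicretin livers overlapped the low end of saline. Semaglutide exceeded saline by 6.12 ± 0.90 on the log2 scale (adjusted p = 0.00171) and calorie restriction did so by 4.29 ± 0.84 (adjusted p = 0.0072). The latter became an adjusted p of 0.0502 with only the 2 groups in the fit. Dicretin was lower than Semaglutide by -9.48 ± 1.14 (adjusted p = 2.35e-05) and than calorie restriction by -7.65 ± 1.11 (adjusted p = 0.000137).

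Against saline the fall in Dicretin was 3.35 ± 1.22 on the log2 scale (adjusted p = 0.0441). This call was lost in 9 of 16 alternatives, including without any 1 of the Dicretin livers 14, 23, 64 or 65 (adjusted p = 0.126, 0.0852, 0.0642 and 0.0896) and without saline 50 or 78 (adjusted p = 0.0865 and 0.134). Semaglutide against calorie restriction gave 1.83 ± 0.72 (adjusted p = 0.144) with groups that did not overlap, and passed only by limma-voom (adjusted p = 0.0174). Reads of close copies can be confused: 21.2% of its 50-base stretches are in other genes, chiefly Hsd3b4 and Gm10681, both listed with 0 counts. Its relatives Hsd3b2 and Hsd3b3 also fell in Dicretin against saline, from 43.6 ± 9.87 to 7.51 ± 3.10 CPM (adjusted p = 1.75e-07) and from 221 ± 24.96 to 37.2 ± 8.43 CPM (adjusted p = 8.69e-09). Neither passed in Semaglutide or calorie restriction against saline (adjusted p = 0.569 to 0.931).

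Cyp4a12a (chromosome 4, 115299046 to 115332815, plus strand), a male-biased fatty acid omega-hydroxylase, was at 42.1, 28.8, 37.9 and 34.8 CPM in saline. Calorie restriction gave 37.1, 85.3, 31.1 and 27.1 CPM, and Semaglutide 6.00, 24.8, 12.3 and 12.8 CPM. In Dicretin it was 0.161, 2.22, 0.406 and 0.260 CPM. Dicretin livers lay below all others and Semaglutide livers below saline and calorie restriction. Dicretin was lower than saline by a log2 difference of -5.52 ± 0.65 (adjusted p = 7.92e-06), than calorie restriction by -5.85 ± 0.65 (adjusted p = 5.94e-06) and than Semaglutide by -4.16 ± 0.64 (adjusted p = 0.000122). Semaglutide against saline was -1.36 ± 0.49 without a call (adjusted p = 0.138) and passed by limma-voom (adjusted p = 0.0262) and with only the 2 groups (adjusted p = 0.035). Against calorie restriction it was -1.69 ± 0.49 (adjusted p = 0.0542). That comparison passed with a filter of 1 CPM (adjusted p = 0.0475), by limma-voom (adjusted p = 0.0113), with only the 2 groups (adjusted p = 0.0454) and without Semaglutide 15 (adjusted p = 0.0291). As many as 48.9% of its 50-base stretches are shared with its neighbour Cyp4a12b, so levels of both are uncertain. Cyp4a12b was at 4.29 ± 3.71 CPM in saline and 0.736 ± 0.382 CPM in Dicretin (log2 -2.52 ± 0.66, adjusted p = 0.00572).

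Hsd3b5 and Cyp4a12a are both male-biased, but moved differently in Semaglutide, where Hsd3b5 rose and Cyp4a12a was lower without a call. Both had their lowest group mean in Dicretin.

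Fmo2 (chromosome 1, 162874317 to 162898726, minus strand), a female-biased flavin monooxygenase, was at 28.9, 34.8, 40.2 and 28.4 CPM in saline. Calorie restriction gave 21.0, 20.8, 26.2 and 16.3 CPM, Semaglutide 7.12, 15.2, 12.6 and 14.8 CPM, and Dicretin 22.4, 18.8, 26.6 and 44.4 CPM. Semaglutide livers lay below all others, calorie-restricted livers below saline, and Dicretin overlapped both. It fell by 1.41 ± 0.26 on the log2 scale in Semaglutide against saline (adjusted p = 0.00396), and was higher in Dicretin than in Semaglutide by 1.16 ± 0.26 (adjusted p = 0.00214). Calorie restriction against saline was -0.65 ± 0.25 (adjusted p = 0.128), and passed with only the 2 groups (adjusted p = 0.00939). Semaglutide against calorie restriction was -0.76 ± 0.26 (adjusted p = 0.0888). Dicretin against saline was -0.24 ± 0.25 with an interval of -0.77 to 0.29.

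Per kilobase of exon, which allows levels of different genes to be compared, Ghr was the most abundant member in saline, at 71.9 ± 3.49 CPM per kilobase. Cyp4a12a followed at 14.8 ± 2.32, Stat5b at 7.11 ± 0.330 and Fmo2 at 5.90 ± 0.991. Socs2 at 2.45 ± 1.21, Cish at 1.99 ± 0.426 and Hsd3b5 at 1.98 ± 2.21 lay within each other's SD. Bcl6 at 1.26 ± 0.293 overlapped Socs2 and Hsd3b5 in this way, and Cish only in the range of its livers. In Semaglutide Hsd3b5 led, at 133 ± 23.8 CPM per kilobase, ahead of Ghr at 75.0 ± 3.19. In Dicretin Hsd3b5 was last, at 0.187 ± 0.0979, next to Cyp4a12a at 0.314 ± 0.403.

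Male-biased hepatocyte genes were taken as a list of 24, of which 23 were tested. In Dicretin against saline 10 fell and 1 rose, where 19.2% of all genes fell and 17.5% rose. The list's median log2 change was -0.40, and that of all genes -0.01. Besides Hsd3b5 and Cyp4a12a, the falls included Slco1a1, an organic anion transporter, from 53.9 ± 29.8 to 4.50 ± 2.29 CPM (log2 -3.56 ± 0.42, adjusted p = 3.84e-06), and Keg1, from 108 ± 33.8 to 15.2 ± 6.04 CPM (-2.83 ± 0.29, adjusted p = 6.54e-07). Nox4 fell from 54.6 ± 5.07 to 18.4 ± 5.08 CPM (adjusted p = 1e-06). The 1 rise was Gstp1, a glutathione transferase, from 368 ± 59.3 to 2677 ± 1052 CPM (2.86 ± 0.27, adjusted p = 2.73e-07).

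In Semaglutide against saline 9 male-biased genes rose and none fell by edgeR, beside 1.56% up and 2.62% down among all genes. The list's median log2 change was 1.04. DESeq2 called 12 and 0, limma-voom 9 and 1, and by edgeR 16 were higher and 1 lower at an unadjusted p under 0.05. Slco1a1 reached 544 ± 67.8 CPM (3.34 ± 0.40, adjusted p = 0.000129). Gstp1 reached 969 ± 253 CPM (1.40 ± 0.26, adjusted p = 0.00391). Cyp7b1, an oxysterol hydroxylase, rose from 102 ± 28.1 to 246 ± 17.9 CPM (1.27 ± 0.24, adjusted p = 0.00405). Of the other 6, 3 are major urinary protein genes (Mup3, Mup11 and Mup20). How far reads are split between genes of that family was not examined, so the levels of these genes are uncertain. The rise of Mup20 was lost in 10 of 16 alternatives (adjusted p up to 0.165) and that of Mup3 in 2 of 16 (up to 0.067). Calorie restriction against saline gave 3 rises and 1 fall with a median of 0.03, beside 3.42% up and 4.11% down among all genes. The rises were Hsd3b5, Slco1a1 (264 ± 89.3 CPM, 2.29 ± 0.38, adjusted p = 0.00132) and Elovl3, a fatty acid elongase, from 41.3 ± 2.81 to 294 ± 109 CPM (2.83 ± 0.62, adjusted p = 0.0119). Mup20 fell (adjusted p = 0.0269), a call lost in 6 of 16 alternatives (adjusted p up to 0.0926, without calorie-restricted 52). Dicretin against Semaglutide gave 15 falls and 1 rise (median -1.61), Dicretin against calorie restriction 10 and 2 (median -0.62), and Semaglutide against calorie restriction 8 rises and 1 fall (median 1.05). Shares of all genes for these comparisons are given above with the members.

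Female-biased genes formed a list of 30, with 22 tested. Cyp2c69, Cyp3a16, Cyp3a41a, Cyp3a41b, Cyp3a44, Sult2a1, Sult3a1 and A1bg had too few counts to be tested. The counts and medians below leave them out. In Dicretin against saline 5 rose and 9 fell, with a median of -0.84, beside 17.5% up and 19.2% down among all genes. Cyp17a1, a steroid hydroxylase, rose from 38.8 ± 7.51 to 524 ± 210 CPM (3.75 ± 0.35, adjusted p = 2.27e-07), and Cyp2a4 from 13.4 ± 5.30 to 255 ± 228 CPM (4.25 ± 0.68, adjusted p = 0.000196). Hao2 fell from 8.04 ± 3.16 to 0.203 ± 0.173 CPM (-5.20 ± 0.71, adjusted p = 1.78e-05) and Cyp2b13 from 14.2 ± 7.24 to 0.363 ± 0.416 CPM (-5.21 ± 0.79, adjusted p = 0.000104). Leaving out 1 library moved these values by over 1.5 times without a lost call: Cyp2a4 was 3.45 without Dicretin 64, and without Dicretin 23 Hao2 was -5.83 and Cyp2b13 -6.25 on the log2 scale. In Semaglutide against saline none rose and 6 fell by edgeR, beside 1.56% up and 2.62% down among all genes. Fmo2 was among the 6, and the list's median was -1.22. At an unadjusted p under 0.05, 0 were higher and 12 lower, and DESeq2 called 0 and 9 and limma-voom 0 and 6. Acot3, an acyl-CoA thioesterase, fell from 99.2 ± 24.2 to 35.8 ± 7.85 CPM (-1.47 ± 0.30, adjusted p = 0.0073). Of the other 4, Cyp17a1 lost the call in 2 of 17 alternatives, Slc22a26 in 11, Slc22a27 in 9 and Slc22a29 in 10. Calorie restriction gave 1 rise and 2 falls, Cyp2a4 and Ntrk2, with a median of -0.36, beside 3.42% up and 4.11% down among all genes. The call was lost in 7 of 17 alternatives for Cyp2a4 (adjusted p up to 0.0783) and in 4 of 17 for Ntrk2 (up to 0.086). Dicretin against Semaglutide gave 4 rises and 5 falls (median -0.02), Dicretin against calorie restriction 3 and 9 (median -0.66), and Semaglutide against calorie restriction 0 and 2 (median -0.57). Shares of all genes for these comparisons are given above with the members.

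**Figure D4:**
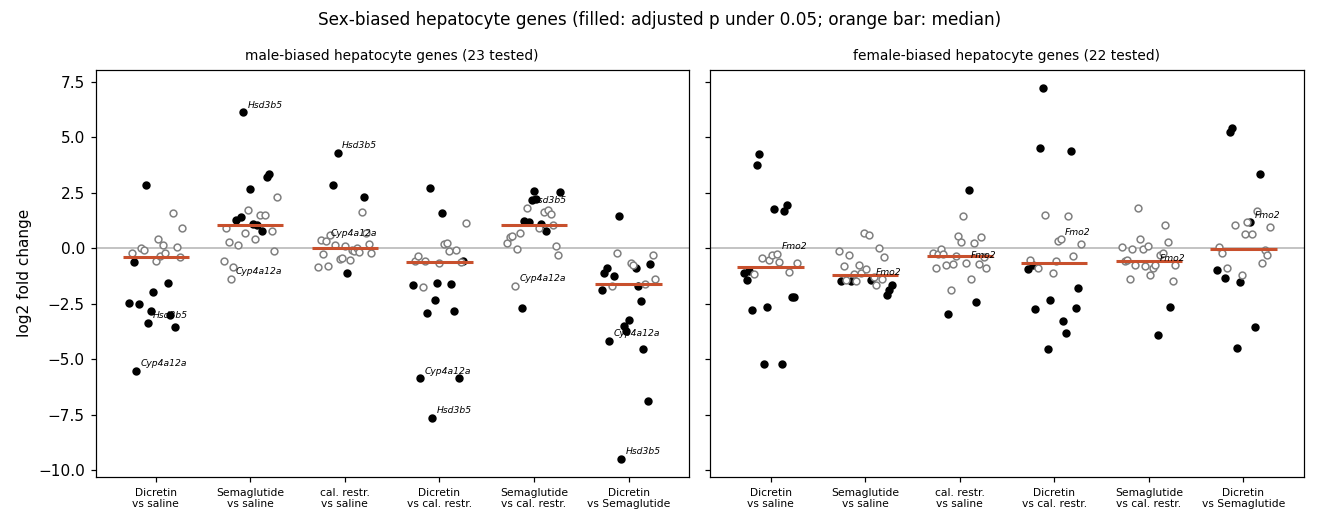
Log2 fold change (vertical axis) of each tested gene of the male-biased list (left, 23 genes) and the female-biased list (right, 22 genes) in the 6 comparisons. Filled points passed at an adjusted p under 0.05 and orange bars are medians, which lie at 1.04 for the male-biased and -1.22 for the female-biased genes in Semaglutide against saline.

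Regulators of the sex-biased programme were listed as 10 genes. In Dicretin against saline 2 rose and 2 fell, with a median of -0.58, beside 17.5% up and 19.2% down among all genes. Hnf4a, a nuclear receptor of hepatocytes, rose from 446 ± 39.9 to 784 ± 68.5 CPM (0.82 ± 0.19, adjusted p = 0.00274). Nr0b2 fell from 36.2 ± 13.9 to 13.2 ± 5.03 CPM (-1.45 ± 0.31, adjusted p = 0.00134). Cux2, a female-specific repressor, was at 5.73 ± 7.79 CPM in Dicretin, against 0.442 ± 0.252 CPM in saline (3.62 ± 0.83, adjusted p = 0.00243), with overlapping groups and no call by limma-voom (adjusted p = 0.0809). Dicretin 64, the library with the acinar transcripts, had 17.3 CPM of Cux2. Without it the Dicretin mean was 1.89 ± 1.499 CPM and the log2 difference 2.001 ± 0.664 (adjusted p = 0.027 by edgeR). The part of those transcripts in this value was not tested. No regulator passed in calorie restriction against saline by edgeR, where 5 had an unadjusted p under 0.05, and DESeq2 called 2 and limma-voom 1.

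Among 4 growth factor genes induced by growth hormone, none passed in Dicretin against saline by edgeR, DESeq2 or limma-voom, and 0 had an unadjusted p under 0.05. Igf1, the circulating mediator of growth hormone, was at 669 ± 227 CPM in Dicretin, against 553 ± 70.1 CPM in saline (0.27 ± 0.21, adjusted p = 0.33). Its carrier gene Igfals was at 81.7 ± 30.1 CPM and 98.3 ± 10.5 CPM (-0.27 ± 0.21, adjusted p = 0.332). In Semaglutide Igf1 was at 539 ± 25.2 CPM and Igfbp3 fell from 17.8 ± 6.26 to 8.80 ± 1.77 CPM (adjusted p = 0.0218), a call lost without Semaglutide 31 (adjusted p = 0.0765), saline 50 (0.0594) or saline 73 (0.107). In calorie restriction none of the 4 passed by edgeR or limma-voom, DESeq2 called 1, and 2 had an unadjusted p under 0.05 by edgeR.

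The genes whose log2 CPM followed each member most closely over the 16 livers were named as a description. Because Dicretin stood apart, these values partly restate group differences. Ghr was closest to Hsd3b2 (r = 0.98), Rnf181 and Hsd3b3, and Stat5b to Rnf144b (0.96), Kank1 and Dock4. Socs2 was closest to Cep95 (0.82), Klf9 and Rgs3. Cish was closest to Onecut1 (0.82), Ikzf4 and Samd14, and Bcl6 to Zfand4 (0.84), Ebag9 and Chac2. Hsd3b5 had Impdh2 (0.94) and Slco1a1, Cyp4a12a had Cat (0.97), Gm8941 and Ido2, and Fmo2 had Tcn2 (0.88), Dlst and Sulf2.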

How the data were processed

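RNA from 16 livers was measured as deposited raw read counts per gene, in whole numbers without normalization. Per the submitters' processing notes, the authors used TopHat2 2.1.1, featureCounts and build mm10; no source used here names the strand setting or annotation release. Libraries were grouped by treatment label, and columns were matched by the number in each title. Of 46078 genes, 22577 had no count. The counts went into edgeR 4.0.16 under R 4.3.3 (filterByExpr, TMM, 1 model over 4 groups, robust quasi-likelihood fit) and 6 contrasts, without adjustment across comparisons. The method was also run on simulated data, with an outcome not reported here. Far fewer genes were changed there than passed in Dicretin against saline, so it cannot speak for changes on that scale. Totals of 12.144 to 18.755 M and a common biological coefficient of variation of 0.24 set the precision. The replicates are separate animals by their numbers, and p-values measure the spread between them. Alternatives were another scaling, test, filter or set of libraries, with DESeq2 1.42.0 and limma-voom 3.58.1. Likeness used log2 CPM with a prior count of 2. The 8 members and all lists were chosen with earlier results of these data known. From each list up to 3 further genes that passed with the smallest p were named per comparison, and those needed to state small counts. Outside that rule, Jak2, Igf1, Igfals, Hsd3b2, Hsd3b3, Zfand5, Slco1a1 and Cyp2a4 in Dicretin against saline, and the Mup, Slc22a27 and Slc22a29 genes in Semaglutide were chosen after their values were seen. A few list members are counted but not reported here. Positions came from GENCODE M21 and promoter windows from RefSeq, both GRCm38.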

Additional observations from a re-analysis of the deposited data

Results flagged for a closer look

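Cyp4a12a in Dicretin 23 was at 2.22 CPM, while the other 3 Dicretin livers were at 0.161 to 0.406 CPM. Its gap to the nearest of them was 0.881 of the group's range, above Dixon's 95% limit for 4 samples. It was the 1 value so marked among 32 sets of 4 livers (8 genes in 4 groups), and chance marks about 1 in 20.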

How the results depend on the processing

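Of 815 values of members under alternatives, 770 kept their direction and side of the threshold, 10 lost a call, 14 gained one and 21 turned sign, none of the 21 a call; of 140 calls of list genes, 89 held under every alternative run. Each result that turned sign was smaller than its SE in the reported fit. Socs2 in Dicretin against saline was 0.018 without a filter, 0.14 by limma-voom and -0.304 to 0.23 with 1 library left out. Cish was -0.36 by limma-voom and -0.233 to 0.662 with 1 left out in Semaglutide against saline, -0.889 to 0.067 in calorie restriction against saline, and -0.18 to 0.733 in Dicretin against Semaglutide, where it was -0.276 without Semaglutide 11 and Dicretin 14. With 1 left out, Stat5b in Semaglutide against saline was -0.115 to 0.136, Cyp4a12a in calorie restriction against saline -0.175 to 0.509, and Ghr in Semaglutide against calorie restriction -0.047 to 0.036 (0.005 with upper quartile factors). DESeq2 called 982 genes in Semaglutide against saline (539 by edgeR; 256 to 512 with 1 left out), 1528 in calorie restriction against saline (972; 502 to 849) and 1292 in Semaglutide against calorie restriction (790; 445 to 963). With only the 2 groups, 2569 genes passed in calorie restriction against saline and 2658 in Dicretin against Semaglutide (4128 in the fit of all groups). Without Semaglutide 11 and Dicretin 14, 1880 genes and 2 members passed in calorie restriction against saline, the second being Fmo2 (adjusted p = 0.05 after rounding). In Semaglutide against calorie restriction 0 to 1 members passed with 1 library left out, 1 with the 1 CPM filter or only the 2 groups, and 2 by limma-voom. The longer motif TTCCNGGAA was in 1.148% of windows. The within-group r of Cish and Bcl6 was -0.916 without calorie restriction and -0.939 to -0.853 with 1 library left out; its exact permutation p was 0.0643 without calorie-restricted 52 and 0.0695 without 79. The cause of these shifts was not tested. Hsd3b5 had 17 counts in all in Dicretin, so its level there has a wide counting error. No paired analysis was possible because the groups share no replicate numbers.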
